A study of Mus musculus with 6 samples.

Results

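The genes described here are 10 metalloproteases of the ADAM and ADAMTS families, Adam8, Adam9, Adam10, Adam12, Adam15, Adam17, Adam19, Adamts1, Adamts4 and Adamts5. They were chosen by name, as the non-control probes whose array gene name is one of these symbols, which gave 15 of the 55681 probes on the array. All 10 genes passed the detection filter and entered the test, among 24757 features in all. Total RNA from skin biopsies of female FVB/N mice was measured on 1-colour microarrays, 3 of acetone-treated healthy skin and 3 of tumors that the labels call cSCC, cutaneous squamous cell carcinoma. The tumors had been raised with DMBA, a mutagen, followed by the phorbol ester PMA (also called TPA), a protein kinase C activator, given for 6 weeks, then DMBA again, then the phorbol ester for a further 14 weeks. Healthy skin received neither agent, and treated skin that stayed free of tumors is not among the samples, so tumor and treatment cannot be told apart. The biopsies are whole tissue, in which fewer cells of a type and less RNA per cell cannot be told apart.

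ADAM proteins are membrane-anchored proteases that cut the outer parts of other membrane proteins from the cell, a process called shedding. ADAM17 and ADAM10 release ligands of the EGF receptor, cytokines such as TNF, and Notch and cadherin ectodomains, and in skin the EGF receptor ligands drive keratinocyte growth. ADAMTS proteins are secreted, bind the extracellular matrix, and include the aggrecanases that cut the proteoglycans aggrecan and versican. Some, though not all, members of each family are held in check by tissue inhibitors of metalloproteinases, the TIMPs.

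In tumors Adam8 rose 15.8-fold and Adamts4 rose 17.1-fold, Adamts5 fell 3.62-fold, and the other 7 members did not pass the test. That is 3 of 10 members called, beside 25.9% of all features (limma, Benjamini-Hochberg adjusted p under 0.05), so the share of changed members was near the background. By direction, 2 members were higher, beside 10.3% of all features, and 1 was lower, beside 15.6%. The members' median log2 fold change was 0.16, against -0.16 over the whole array. Signals below are log2 values relative to the 75th percentile of the same array, and a negative signal lies under that percentile. Fold changes are tumor over healthy skin on this scale.

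The letters of 2 probes are shown, because the results on Adam12 and Adamts5 rest on them and both genes have further probes elsewhere in the transcript. The Adam12 probe spans 2237 bases of the genome with 60 bases of sequence (chr7:141079625-141081861, minus strand, mm9), so it crosses an exon junction, and the capitals mark a stop triplet that ends a reading frame open over the rest of the probe. The Adamts5 probe lies at chr16:85899450-85899509 (minus strand, mm9).
Adam12, base 2872 of the transcript: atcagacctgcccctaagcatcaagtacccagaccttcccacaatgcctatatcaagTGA
Adamts5, base 1861 of the transcript: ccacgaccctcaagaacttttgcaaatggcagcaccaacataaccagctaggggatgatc
The remaining 13 member probes are each 60 bases long and are given by position only, since no exon or UTR annotation of the mm9 build was used here.

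Adam8, a protease of leukocytes and activated epithelia, had the clearest change of the 10. Its probe (chr7:147164873-147164932, minus strand, mm9) gave log2 signals of 1.90, 1.92 and 1.76 in the healthy skins and 5.88, 5.95 and 5.70 in the tumors. The tumors all lay far above the healthy skins, and the spread within each group was small beside the gap (SD of 0.09 among the healthy skins and 0.13 among the tumors, n = 3). The log2 fold change was 3.98 ± 0.25 SE (limma adjusted p = 0.000294), a 15.8-fold rise with a 95% interval of 10.5 to 23.9. By unadjusted p it ranked 46 of 24757 features, and within slide row 2, which holds healthy skin 3 and all tumors, its log2 fold change was 4.08.

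Most but not all tested markers of neutrophils, which carry ADAM8, moved with this rise. Of 8 neutrophil markers tested, 6 were called higher and 0 called lower in tumors (Csf3r and Fpr1 were not called). Of the 2 not called, 1 had every tumor below every healthy skin, and the lowest log2 fold change of the 8 was -0.76. The summed linear signal of the 8 was 205 to 264 in healthy skin and 503 to 767 in tumors. The list includes S100a8, S100a9 and Mmp9, and whether neutrophils alone give these signals was not tested. Mmp8 was the neutrophil marker that no healthy skin array measured well above background. Of 10 macrophage markers, 2 were higher (Cd14 and Cd68) and 2 lower (Cd163 and Itgam, which neutrophils also carry), and their summed signals overlapped (105 to 263 and 46.6 to 118). The part of these cells in the rise of Adam8 was not tested.

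Adam10, the protease that cuts Notch and E-cadherin, gave log2 signals of 2.35, 2.42 and 2.99 in healthy skin and 3.55, 3.32 and 3.49 in tumors (probe chr9:70627859-70627918, plus strand, mm9). All 3 tumors were above all 3 healthy skins, but the difference did not pass the test (log2 fold change 0.87 ± 0.29 SE, 1.82-fold, 95% interval 1.14 to 2.92, limma adjusted p = 0.0655). Adam10 passed in 7 of 22 alternatives. Without 1 array in turn, it passed only without healthy skin 3, the dimmest array (adjusted p = 0.0257). It also passed with the authors' deposited values (adjusted p = 0.0303). Within slide row 2 the difference was smaller, 0.46 (adjusted p = 0.37).

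Adam17, the TNF-converting enzyme, has a pair of probes that start 8 bases apart (chr12:21329370-21329429 and chr12:21329378-21329437, minus strand, mm9). The brighter of them read -2.53, -2.05 and -1.61 in healthy skin and -2.13, -2.44 and -2.22 in tumors, so the tumors lay within the range of the healthy skins. Its log2 fold change was -0.20 ± 0.32 SE, with an interval of 0.517-fold to 1.46-fold (limma adjusted p = 0.668), and the other probe gave -0.50 (adjusted p = 0.35). The sign of this small difference turned with the scaling, to 0.17 when arrays were scaled to their median and 0.69 when scaled to the spike-ins.

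Adam9, a widely expressed sheddase, read 1.99, 2.53 and 2.13 in healthy skin and 2.36, 2.53 and 2.87 in tumors (probe chr8:26060251-26060310, minus strand, mm9). The groups overlapped, and the interval of its fold ran from 0.803 to 2.08 (limma adjusted p = 0.375). Adam15, which binds integrins through its disintegrin domain, read 5.10, 5.18 and 5.94 in healthy skin and 4.77, 4.61 and 4.61 in tumors (probe chr3:89143563-89143622, minus strand, mm9). All 3 tumors were below all 3 healthy skins. The log2 fold change of -0.74 ± 0.32 SE did not pass (limma adjusted p = 0.123), and it passed with the deposited values (-0.91, adjusted p = 0.0287). It also passed with the slide row as a block (-1.27, adjusted p = 0.0201). That block sets healthy skin 3, the highest of the healthy skins for Adam15, alone against the tumors. With spike-in scaling the sign of Adam15 turned, to 0.15.

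Adam12 and Adam19, also called meltrins, are known from fusing muscle cells and from activated connective tissue cells. Adam19 (probe chr11:45960740-45960799, plus strand, mm9) was nearly equal in the healthy skins, at 0.08, 0.18 and 0.31, and spread widely in the tumors, at 0.09, 1.40 and 2.31. Tumor 1 sat among the healthy skins while tumors 2 and 3 lay above them. The log2 fold change was 1.08 ± 0.53 SE (limma adjusted p = 0.171), and without tumor 1 it was 1.67 and passed (adjusted p = 0.0288). Without tumor 3 it was 0.56 (adjusted p = 0.409). Tumor 1 also had the highest median background of the 6 arrays, 85 intensity units against 23 to 26 on the others.

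The Adam12 probe printed above read -1.40, -1.18 and -0.16 in healthy skin and -2.38, -0.67 and 0.15 in tumors, all of them well above background. The groups overlapped, and the log2 fold change was -0.05 ± 0.66 SE, with an interval of 0.331-fold to 2.81-fold (limma adjusted p = 0.959). 2 further Adam12 probes lie 387 and 3798 bases farther towards the 3′ end of the same transcript (chr7:141079238-141079297 and chr7:141075827-141075886, minus strand, mm9). On healthy skin neither of them rose clear of background, and both did so on tumors 2 and 3, so they were left out by the filter, which asked for 3 arrays.

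The far probe read -7.18, -7.26 and -6.46 in healthy skin and -3.81, -1.78 and -1.74 in tumors. It was at least 5.41-fold higher in tumors, a bound against the lowest signal well above background on each healthy skin array (fitted log2 fold change 4.52, limma adjusted p = 0.00945 among all probes with no filter, an alternative chosen after seeing the data). The nearer one read -7.18, -7.40 and -6.50 in healthy skin and -5.79, -4.06 and -3.73 in tumors, with a bound of at least 1.28-fold (fitted log2 fold change 2.50, adjusted p = 0.0504). These bounds hold for the background-subtracted signals only. Their tumor means include tumor 1, which was not well above background on either probe, so they are not strict. The fitted values also rest on healthy skin signals that were not well above background. With normexp background correction the fitted values were 1.18 (adjusted p = 0.0655) for the far probe and 0.08 (adjusted p = 0.869) for the nearer one, and with the deposited values 2.11 (adjusted p = 0.0185) and 1.02 (adjusted p = 0.0536). The 3 probes of Adam12 therefore did not give the same result, and whether their changes differ was not tested.

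**Figure D1:**
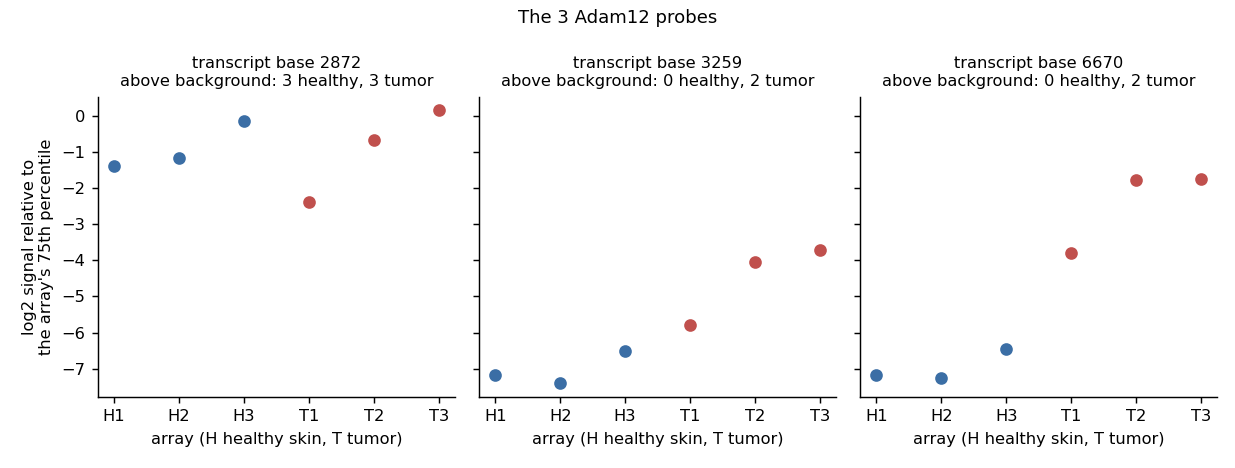
The log2 signal of each Adam12 probe, relative to the array's 75th percentile, on the 3 healthy skin (H, blue) and 3 tumor (T, red) arrays, ordered by position in the transcript. The probe at base 2872 overlaps between groups, while at bases 3259 and 6670 every tumor lies above every healthy skin, whose signals were not well above background.

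Among the ADAMTS members, Adamts4, an aggrecanase that inflammatory cytokines induce, rose in tumors. Its probe at chr1:173189952-173190011 (plus strand, mm9) read -3.19, -4.14 and -2.73 in healthy skin and 0.49, 0.54 and 1.21 in tumors. Every tumor lay well above every healthy skin, and all 6 arrays were well above background. The log2 fold change was 4.10 ± 0.43 SE, 17.1-fold with an interval of 8.59 to 34.1 (limma adjusted p = 0.00116). The other Adamts4 probe, at chr1:173190709-173190768, gave 3.98 (adjusted p = 0.00179), close to the first. Within slide row 2 Adamts4 stood at 3.48 (adjusted p = 0.0217), and with normexp background correction at 2.95 (adjusted p = 0.000846).

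Adamts5, the other main aggrecanase of mouse cartilage, moved the opposite way. The probe printed above read -1.70, -1.28 and -2.23 in healthy skin and -3.79, -4.20 and -2.79 in tumors. All 3 tumors were below all 3 healthy skins, and tumor 1 was not well above background. The log2 fold change was -1.86 ± 0.44 SE, a 3.62-fold fall with an interval of 1.77 to 7.40 (limma adjusted p = 0.0218). A probe 6183 bases farther along the transcript (chr16:85858402-85858461, minus strand, mm9) gave -2.26 (adjusted p = 0.0391). The call of Adamts5 was lost in 11 of 21 alternatives, among them without healthy skin 1 (adjusted p = 0.0566), healthy skin 2 (0.0699), tumor 1 (0.0647) or tumor 2 (0.0686), with the slide row as a block (-1.36, adjusted p = 0.125), with the deposited values (0.0501) and with spike-in scaling (-0.97, adjusted p = 0.433). Its sign was negative in all 21.

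Skeletal muscle and fat markers moved with this fall. All 10 muscle markers tested were lower in tumors, with summed signals of 949 to 1420 in healthy skin and 26.0 to 58.2 in tumors, and 6 of 8 adipocyte markers were lower and 0 higher (125 to 472 and 72.7 to 220). Their part in the fall of Adamts5 was not tested. Of 10 fibroblast markers, 1 was higher (Col1a1) and 1 lower (Dcn), and the summed signals overlapped (239 to 443 and 278 to 625).

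Adamts1, a protease of versican, read 3.01, 2.28 and 3.75 in healthy skin and 2.77, 1.32 and 2.31 in tumors (probe chr16:85795044-85795103, minus strand, mm9). The groups overlapped, and the log2 fold change of -0.88 ± 0.51 SE did not pass (limma adjusted p = 0.228, interval 0.24-fold to 1.23-fold). With spike-in scaling the difference was 0.01, of the other sign.

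**Figure D2:**
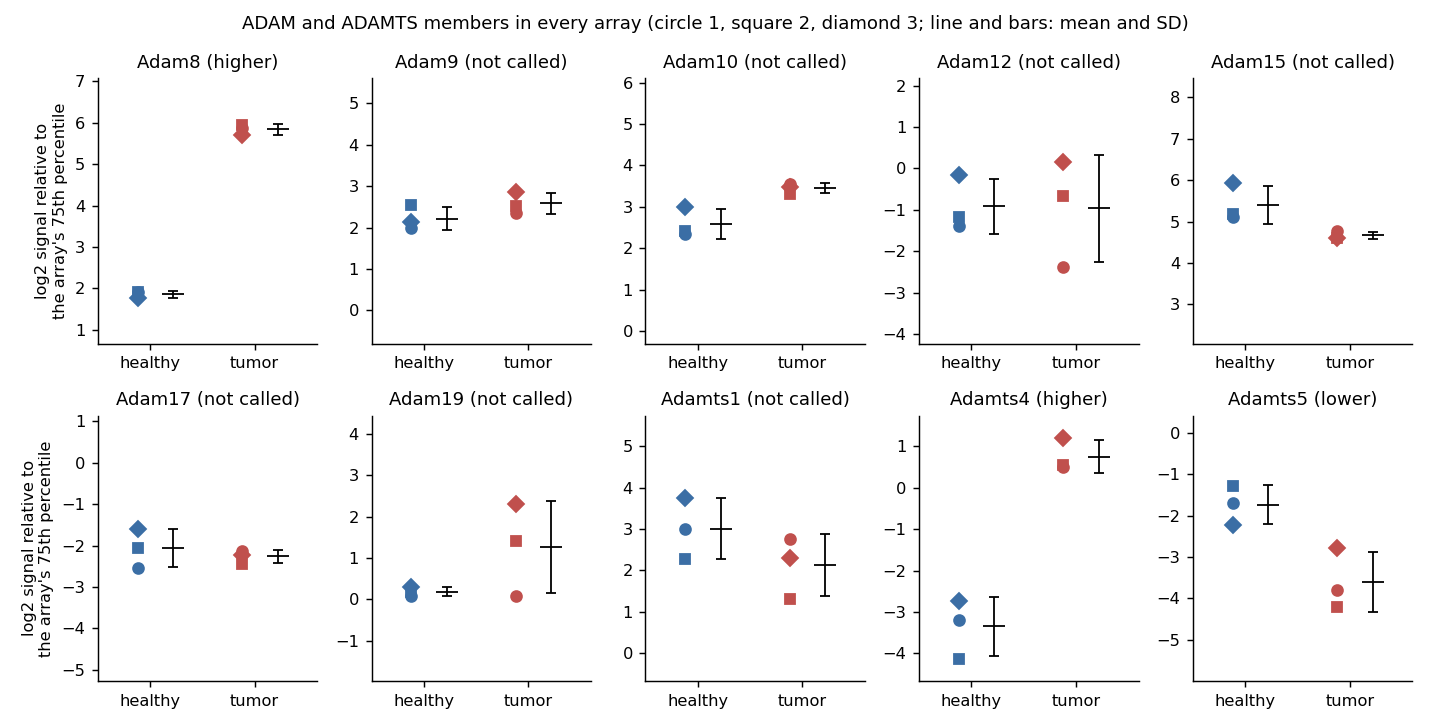
Log2 signal of each member, relative to the array's 75th percentile, in healthy skin (blue) and tumors (red). Symbols mark the replicate, the line and bars give the mean and SD of 3 arrays, and each panel spans the same range of 6.4 log2 units. Adam8 and Adamts4 stand apart between groups, and Adamts5 is lower in every tumor.

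Counted over the members, 3 of 10 had all tumors above all healthy skins (Adam8, Adam10 and Adamts4), beside 20.7% of all features, and 2 had all tumors below (Adam15 and Adamts5), beside 29.0%. In all 5 of 10 did not overlap, beside 49.7%. Healthy skin 3 was the highest of the healthy skins for Adam10, Adam12, Adam15, Adam17, Adam19, Adamts1 and Adamts4, and it had the lowest 75th percentile signal (242 intensity units, where the others had 525 to 897). Within the tumors, tumor 3 was the highest for Adam9, Adam12, Adam19, Adamts4 and Adamts5. Adam8 had the smallest SD of the 10 in healthy skin.

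**Figure D3:**
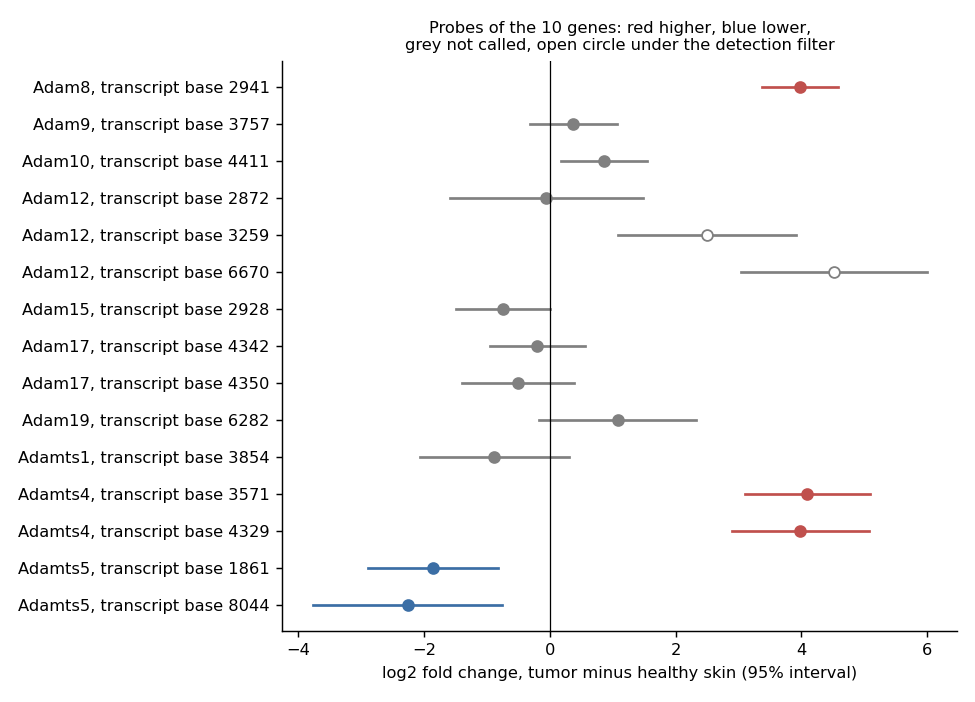
Log2 fold change, tumor minus healthy skin, with its 95% interval, for the 15 probes, ordered by gene and by position in the transcript. The Adam17, Adamts4 and Adamts5 probe pairs lie close together, and the 3 Adam12 probes run from -0.05 to 4.52, with the open circles fitted values of probes under the detection filter.

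The region before a gene's start was read for the members in RefSeq's table (GRCm38.p6), which held 8 promoters of 6 members, each with 250 bases before and 50 after the start. Adam9, Adam12, Adamts4 and Adamts5 had no entry. The motif searched was TGANTCA, the element that AP-1 binds and that phorbol esters act through, read on both strands, where it is its own reverse complement. It was found in 7.81% of the 32851 promoters of the table and in 1 of the 8 member promoters, the second of 3 for Adam19, 131 bases before the start. Adam8, the called member with an entry, had no match. Both sequences are shown because Adam8 rose in tumors raised with a phorbol ester and the Adam19 promoter holds the match, in capitals. The Adam8 promoter lies at chr7:139992513-139992812 (minus strand) and the Adam19 promoter at chr11:46055734-46056033 (plus strand).
Adam8: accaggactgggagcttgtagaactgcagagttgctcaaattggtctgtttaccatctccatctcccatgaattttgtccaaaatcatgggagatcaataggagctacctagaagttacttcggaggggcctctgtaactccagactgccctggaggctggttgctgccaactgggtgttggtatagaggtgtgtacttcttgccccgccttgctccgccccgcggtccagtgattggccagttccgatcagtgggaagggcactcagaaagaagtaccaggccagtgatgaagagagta
Adam19: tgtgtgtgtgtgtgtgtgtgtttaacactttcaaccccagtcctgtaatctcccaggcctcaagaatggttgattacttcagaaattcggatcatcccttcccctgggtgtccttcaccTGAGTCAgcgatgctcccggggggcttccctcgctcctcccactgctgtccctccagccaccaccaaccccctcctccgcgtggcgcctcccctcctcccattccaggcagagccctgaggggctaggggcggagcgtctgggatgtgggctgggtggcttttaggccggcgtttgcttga
These letters describe the windows and say nothing of binding.

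Most tested genes of the rest of both families did not pass the test. Of 27 other ADAM genes listed, 13 did not pass the detection filter, most of them genes known from testis, and of the 14 tested 2 were higher and 2 lower, beside 10.3% and 15.6% of all features (median log2 fold change -0.43). Adamdec1, a soluble protease of gut and macrophages, had no healthy skin signal well above background and was higher in tumors, by at least 20.0-fold on the background-subtracted signals (limma adjusted p = 0.00142). Its fitted log2 fold change was 2.66 with normexp and 3.80 with the deposited values, both under that bound and both called. Adam28 was likewise not well above background there and was at least 7.24-fold higher on the same signals, with tumor signals far apart at 0.60, -3.10 and -3.58 (limma adjusted p = 0.0132). Adam28 was not called with normexp (1.41, adjusted p = 0.198), with the deposited values (2.61, adjusted p = 0.0577) or with the slide row as a block (adjusted p = 0.0859). Adamdec1 and Adam28 passed the filter through the tumors alone, and they are the 2 counted as higher. Their calls lean on the group where they are high and add no support to the bounds. Adam33 fell by 2.29 on the log2 scale (adjusted p = 0.0105), and Adam23, which lacks an active protease site, fell by 1.95 (adjusted p = 0.0285). Adam23 was not called without healthy skin 1, healthy skin 3, tumor 1 or tumor 2, and Adam33 not with spike-in scaling (-1.39, adjusted p = 0.165). Of 16 other ADAMTS and ADAMTS-like genes tested, of 22 listed, 1 was higher and 3 lower (median -0.49). Adamts16, the 1 counted as higher, also passed through the tumors alone and was at least 9.69-fold higher on the background-subtracted signals. Its fitted rise was 2.84-fold with normexp and 6.10-fold with the deposited values, under that bound but called. Adamts14, a procollagen-processing protease, fell by 2.80 (adjusted p = 0.0026), and its call was lost with spike-in scaling (-1.91, adjusted p = 0.0801). Adamtsl1 and Adamts18 fell by 2.08 and 2.06 (adjusted p = 0.0238 and 0.0433), and were called in 12 and 7 of 21 alternatives. Adamts18 was well above background on 1 of 3 tumor arrays. With normexp Adamts18 was -0.94 (adjusted p = 0.111) and with the deposited values -0.90 (adjusted p = 0.0892). Without healthy skin 3 or tumor 2 neither was called, and Adamtsl1 was also lost without healthy skin 2 and Adamts18 without healthy skin 1 or tumor 1.

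The tissue inhibitors split. Timp1 rose 25.3-fold, from a mean log2 signal of -0.55 in healthy skin to 4.12 in tumors, whose ranges did not overlap (log2 fold change 4.66 ± 0.61 SE, limma adjusted p = 0.00262). Timp3, the matrix-bound inhibitor of ADAM17 and the aggrecanases, fell 9.64-fold, from 4.30, 4.51 and 4.80 to 0.64, 1.32 and 1.84 (-3.27 ± 0.37 SE, adjusted p = 0.00151). Timp4, which was well above background on 2 of 3 tumor arrays, fell 13.8-fold (adjusted p = 0.00394) and Timp2 fell 4.10-fold (adjusted p = 0.0195). Timp2 was not called on the mean of its probes (-0.67, adjusted p = 0.191), nor without healthy skin 3 or tumor 2. Over the whole list of inhibitors, trafficking partners and convertases, 5 of 21 were higher and 5 lower, beside 10.3% and 15.6% of all features, with a median of -0.53. Pcsk5, a proprotein convertase of the family that removes ADAM prodomains, rose 5.14-fold (adjusted p = 0.0103), and Tspan33, a tetraspanin partner of ADAM10, rose 2.77-fold (adjusted p = 0.0309). Of the other tetraspanins tested, Tspan14 rose by 1.43 on the log2 scale (adjusted p = 0.00857). Tspan5, Tspan15 and Tspan17 were lower in every tumor than in every healthy skin, but were not called. Tspan33 was not called without healthy skin 1, healthy skin 2, tumor 1 or tumor 3. Pcsk5 was not called with the slide row as a block (1.79, adjusted p = 0.0639), which is the same contrast as within slide row 2.

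Among 33 tested membrane proteins that ADAM proteases shed, 8 were higher and 3 lower in tumors, beside 10.3% and 15.6% of all features, with a median of 0.18. Hbegf, a heparin-binding EGF receptor ligand, rose 40.9-fold, from -0.34, -0.32 and -0.65 to 5.46, 4.92 and 4.38 (limma adjusted p = 0.000294). Epgn, another such ligand, rose by 3.42 on the log2 scale (adjusted p = 0.00135). Egf and Btc, also EGF receptor ligands, fell by 3.56 and 1.49 on the log2 scale (adjusted p = 0.00246 and 0.0371), and Il6ra, the interleukin-6 receptor, fell by 2.57 (adjusted p = 0.00417). Btc was called in 8 of 22 alternatives, and without 1 array in turn it was called without healthy skin 3 alone. With spike-in scaling Egf and Il6ra were not called (adjusted p = 0.0522 and 0.116).

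Among 17 tested matrix substrates and cofactors of ADAMTS proteases, 3 were higher and 3 lower, near the 10.3% and 15.6% of all features, with a median of -0.72. The thrombospondins Thbs2 and Thbs1 rose 5.70-fold and 3.57-fold (adjusted p = 0.0289 and 0.0242), and the basement membrane protein Nid2 rose 2.76-fold (adjusted p = 0.0102). Without healthy skin 2, healthy skin 3, tumor 2 or tumor 3, neither thrombospondin was called, and Thbs1 was also lost without healthy skin 1. Dcn, the small proteoglycan decorin, fell by 2.53 and Comp, a cartilage matrix protein, by 2.14 (adjusted p = 0.0133 and 0.015). Neither was called with spike-in scaling (-1.64 and -1.25, adjusted p = 0.143 and 0.231), within slide row 2 (0.0559 and 0.056) or without healthy skin 3 and tumor 1 together (0.0944 and 0.0682). Bcan, the proteoglycan brevican, passed the filter through healthy skin alone, where the background-subtracted signal was at least 3.84-fold that of tumors (adjusted p = 0.0129). It was not called with normexp (-1.17, adjusted p = 0.0707) or the deposited values (-1.11, adjusted p = 0.0598), both under that bound.

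**Figure D4:**
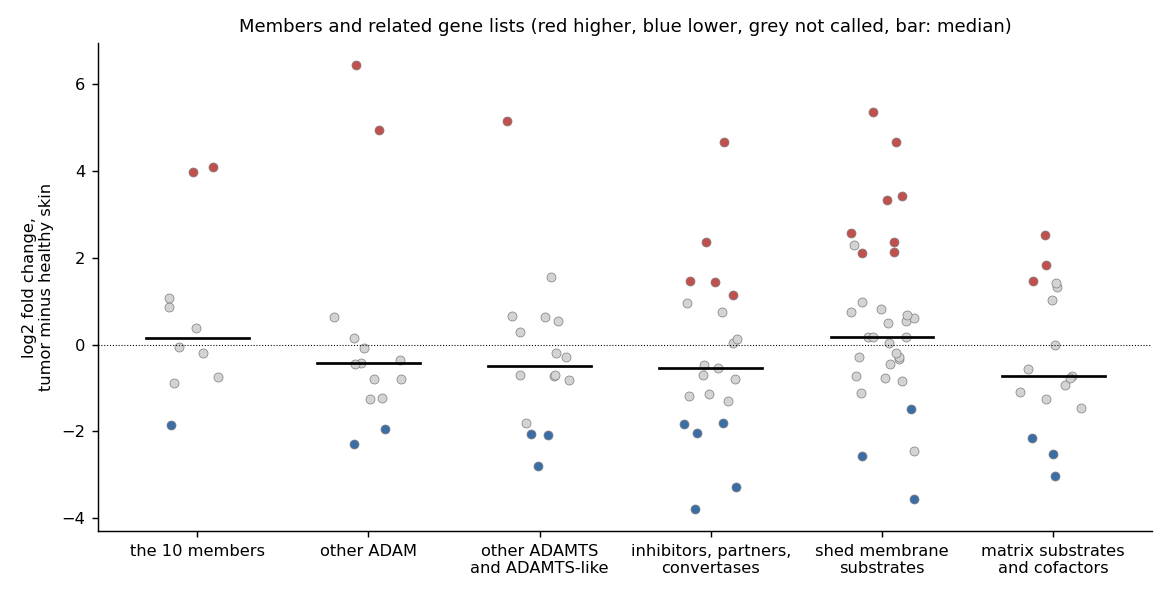
Log2 fold change, tumor minus healthy skin, of the members and of the tested genes in 5 related lists. Each point is a gene, colour gives the call and the bar is the median, which lies between -0.72 and 0.18.

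The arrays carried 59305 spots that were not controls, of which 48.7% to 65.4% were well above background, and none of them was saturated. Keratinocyte markers, which define the labelled tissue, were well above background in both groups (9 tested, 0 higher and 2, Krt1 and Krt10, lower in tumors, summed signals 1282 to 1939 and 1327 to 1401). The test called 6420 features, of which 2553 rose and 3867 fell. Higher features made up 39.8% of the calls with the scaling used here, 62.9% when scaled to the median and 70.8% when scaled to the spike-ins, and the array-wide median log2 fold change was -0.16, 0.21 and 0.73 under these. Each fold change above is therefore relative to the upper signals of an array.

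**Figure D5:**
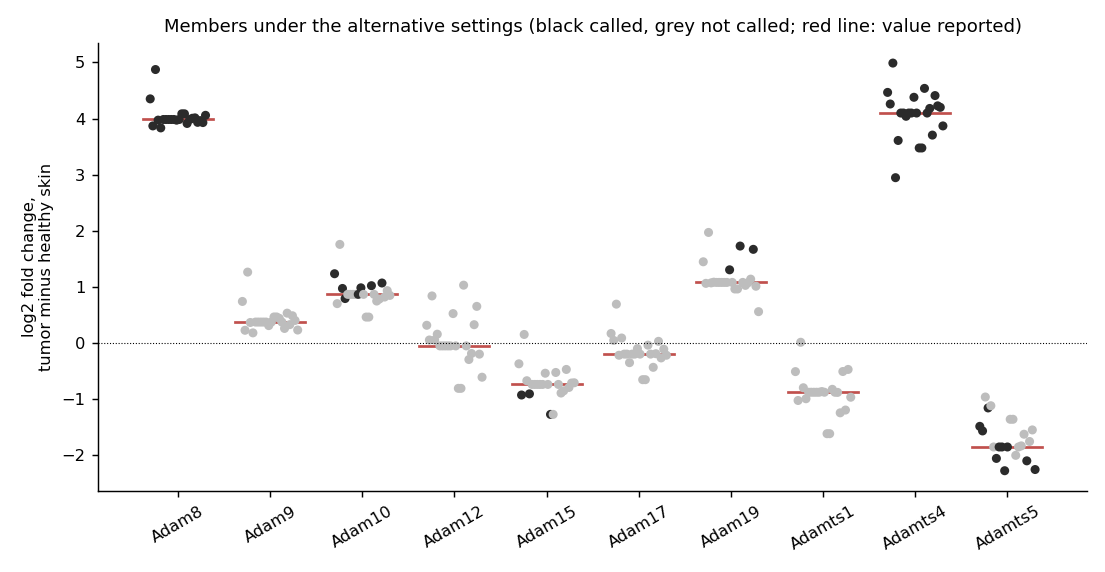
Log2 fold change, tumor minus healthy skin, of each member under each alternative setting (points, black where called) and as reported (red line). Adam8 and Adamts4 were called under all 22 alternatives, with values of 3.83 to 4.87 and 2.95 to 4.99, while Adam12 and Adam17 lie on both sides of 0.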

How the data were processed

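Spot intensity, as the authors deposited it, was scanned in 1 colour (Cy3) and extracted with Agilent Feature Extraction 10.7.3.1, per the file headers, and its processed signal is background-subtracted. All 6 arrays lay on 1 slide. The authors' deposited series table holds log2 values that order the spots of an array as their median signal does (Spearman correlation 1). The submitters' processing notes name limma. Its version and background handling were not given in the sources used here.

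Log2 processed signals were centred on each array's 75th percentile over 59305 non-control spots. Spots flagged as outliers were left out (180 of 55681 probes lost), spots of a probe averaged, and a probe kept when 3 or more of 6 arrays had it well above background (34284). The brightest probe stood for its gene (24757 features), named through RefSeq accessions (15276), symbols (1015) or synonyms (178), or by the array's own name (8288). Tumors were set against healthy skin with limma 3.58.1 under R 4.3.3 (lmFit, eBayes, two-sided, Benjamini-Hochberg adjustment over all features) without a block, and the scripts were tested on simulated data. Whether each biopsy is from its own mouse is not in the labels, and p-values then cover the spread among these samples, which may be technical. Precision is limited by the number of arrays.

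The members and gene lists were chosen with earlier results of these data known. The text names every member and, of each list, up to 3 rises and 3 falls past the test whose groups do not overlap. The other tested tetraspanins were added after their values were seen. A gene that this rule names among the shed substrates is not reported here. Markers named beside a count of 5 or fewer, or as exceptions, were chosen after their values were seen. Alternatives were median, quantile and spike-in scaling, normexp with an offset of 50, the deposited values, other filters and probe rules, a variance trend, array weights, replicate and slide-row blocks, fewer arrays, and treat. Slide row 1 held healthy skins 1 and 2 only, so the slide-row block sets the tumors against healthy skin 3 alone.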

Additional observations from a re-analysis of the deposited data

How the results depend on the processing

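The counts of called features and members moved as follows. Without 1 array in turn, the number of features called ran from 3840 to 5458 (1375 to 2222 higher and 2465 to 3236 lower), and members called from 2 to 4 (2 to 3 higher, 0 to 1 lower). In the same fits, 3 to 4 other ADAM genes were called, 2 to 4 other ADAMTS genes, 8 to 10 inhibitors, partners and convertases, 8 to 10 shed substrates and 4 to 7 matrix substrates. With spike-in scaling, 2678 features were called, 781 of them lower. In that fit 0 members were lower, and 2 other ADAM genes, 2 other ADAMTS genes and 6 inhibitors and partners were called. Median scaling gave 4386 higher features, and quantile normalization 2 lower members. With no detection filter 3920 features were called (1476 higher, 2444 lower), with 0 lower members and 2 other ADAMTS genes. Asking for all 6 arrays well above background, 2398 features were lower, with 0 lower members, 2 other ADAM genes and 1 other ADAMTS gene, and Adamts5 could not be tested there. Array weights gave 9858 features (4230 higher), 5 members (4 higher), 7 other ADAMTS genes and 16 inhibitors and partners. With the slide row as a block 7 other ADAM genes, 2 other ADAMTS genes and 10 matrix substrates were called. With slide row 2 alone, which holds healthy skin 3 against the tumors and assumes that it varies as they do, 0 members were lower, and 2 other ADAM genes, 5 inhibitors and partners and 3 matrix substrates were called. Without healthy skin 3 and tumor 1 together 4 members were higher and 0 lower. With treat at a log2 fold change of 1, 1666 features were called (570 higher, 1096 lower) and 0 members were lower. In the lists, treat called 2 other ADAM genes, 2 other ADAMTS genes, 3 inhibitors and partners, 7 shed substrates and 0 matrix substrates. The cause of these shifts was not tested. Some settings hold fewer arrays or features, and treat asks the same fit for more than a log2 fold change of 1, so it can only call fewer. Where 0 members were lower by limma's adjusted p, 0 to 2 were lower at an unadjusted p under 0.05, and treat had 4 matrix substrates at that level. A like count can hold another gene: the lower member was Adam15, not Adamts5, with the deposited values and with the slide row as a block.

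Of the members, Adam12 and Adam17 changed sign most. Adam12 was 0.31 with median scaling, 0.051 with quantile normalization, 0.84 with spike-in scaling, 0.051 with normexp, 0.16 with the deposited values, 0.52 with array weights and 1.03 without healthy skin 3 and tumor 1 together. Without 1 array in turn it ran from -0.61 to 0.65. Adam17 was 0.17, 0.044, 0.69 and 0.087 with median, quantile and spike-in scaling and the deposited values, and ran from -0.44 to 0.028 without 1 array in turn. With spike-in scaling Adam15 was 0.15 and Adamts1 0.011. None of these sign changes passed the test in either direction. With the replicate number as a block, 5470 features and 3 members were called, and the calls of Adam8, Adamts4 and Adamts5 were kept. Deviations of same-numbered samples correlated at 0.10, 0.13 and -0.08, and 2 of 6 samples correlated best with their own number, so the numbers were not used to pair samples.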
